A study of Homo sapiens with 8 samples.

Results

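Transcript levels of 10 claudin genes, CLDN1, CLDN3, CLDN4, CLDN6, CLDN7, CLDN10, CLDN11, CLDN12, CLDN15 and CLDN16, were examined by poly(A) RNA-seq in UWB1.289 ovarian cancer cells. The 10 genes were chosen by symbol, with earlier results of these data known, from the 25369 named genes of the count table. The table held 23 numbered claudin genes in all, and the other 13 are described further on. UWB1.289 carries a BRCA1 mutation that truncates the protein and is called BRCA1-null, and UWB1.289 transduced with BRCA1 is called BRCA1+. Cells of both lines received the DMSO vehicle (control) or 0.5 uM entinostat for 24 h, entinostat being an inhibitor of the histone deacetylases HDAC1 and HDAC3. Each of the 4 groups (BRCA1+ control, BRCA1+ entinostat, BRCA1-null control and BRCA1-null entinostat) held 2 libraries. Each genotype was represented by 1 line, so BRCA1 status cannot be told apart from any other difference between these lines. The labels do not say whether replicates came from separate cultures, so p-values measure the spread between these libraries only.

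Claudins are small membrane proteins that form the strands of tight junctions, the belts that seal the space between neighbouring epithelial cells. Barrier-forming members close that space, whereas channel-forming members let selected ions pass between cells. Most claudins bind ZO scaffold proteins, among them ZO-1 and ZO-3 (encoded by TJP1 and TJP3), which tie the strands to the cytoskeleton. Müllerian and ovarian carcinomas are known for high CLDN3, CLDN4 and CLDN7. CLDN6 is an oncofetal claudin that most adult tissues lack.

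Promoter sequences are shown for the most abundant claudin (CLDN1) and for the members that differed most between the lines (CLDN6 and CLDN11). Each is the stretch of 250 bases upstream of the annotated transcript start on GRCh37, the same assembly as hg19, written 5′ to 3′ on the strand of the gene. The CLDN1 window is chr3:190040236-190040485 (minus strand), the CLDN6 window is chr16:3068185-3068434 (minus strand), and the CLDN11 window is chr3:170136406-170136655 (plus strand). Capitals mark the GC box GGGCGG, bound by SP family factors, on either strand (CCGCCC on the other strand).
CLDN1: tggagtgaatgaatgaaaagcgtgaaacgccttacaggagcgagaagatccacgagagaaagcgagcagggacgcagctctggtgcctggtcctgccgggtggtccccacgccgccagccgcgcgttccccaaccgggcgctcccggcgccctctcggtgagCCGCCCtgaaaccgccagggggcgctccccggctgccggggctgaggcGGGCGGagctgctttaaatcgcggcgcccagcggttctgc
CLDN6: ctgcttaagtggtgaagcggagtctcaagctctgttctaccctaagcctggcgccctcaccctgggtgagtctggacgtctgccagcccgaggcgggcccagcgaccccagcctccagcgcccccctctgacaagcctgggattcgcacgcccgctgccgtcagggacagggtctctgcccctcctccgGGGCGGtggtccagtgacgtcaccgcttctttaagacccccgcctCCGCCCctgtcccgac
CLDN11: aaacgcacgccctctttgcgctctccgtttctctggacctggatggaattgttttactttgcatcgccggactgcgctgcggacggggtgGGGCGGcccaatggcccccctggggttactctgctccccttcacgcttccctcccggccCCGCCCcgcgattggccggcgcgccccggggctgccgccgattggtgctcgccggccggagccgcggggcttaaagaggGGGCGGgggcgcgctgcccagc

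The GC box was found in 8 of the 10 claudin promoters, and in 69.6% of 13504 promoters of the same length. CLDN1 and CLDN6 held 2 matches each, and CLDN11 held 3. CLDN12 and CLDN16 held none. The E-box CACCTG, the motif of ZEB and SNAI repressors, was found in CLDN7 only, with 4 matches, against 16.5% of all promoters. An AP-2 motif (GCCNNNGGC, which can overlap a GC box) was found in CLDN3, CLDN6, CLDN12 and CLDN15, against 29.4% of all promoters. Neither TATAAA (5.72% of all) nor the grainyhead-like motif AACCGGTT (0.178% of all) was found in any claudin promoter. These matches are letters in a window, searched on both strands, and the window used one annotated start for each gene. That start lay 119121 bases from the start of the counted gene model for CLDN10, 1018 for CLDN15 and 715 for CLDN7. For the other members it lay nearer. The GC content of the 3 printed windows was 68.8%, 68.0% and 71.2% (CLDN1, CLDN6 and CLDN11), against a median of 66% over all promoters.

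Total counts per library ranged from 31900158 to 53549893, so that a floor of 3 counts corresponded to 0.0552 to 0.0946 CPM (counts per 1e6, by effective library size). BRCA1 counts were 3954 and 4239 in BRCA1+ control libraries and 954 and 1218 in BRCA1-null control libraries, and 4233 and 5473 against 824 and 800 with entinostat, so the transcript separated the libraries as their labels do. The 9 epithelial and Müllerian markers were detected, at a summed level of 14063 to 18448 CPM per library. PAX8, the Müllerian lineage factor, had 13144 to 18327 counts, but WT1 had only 1 to 20. Leukocyte markers (5 of 5 over 3 counts in a library) summed to 15.2 to 37.4 CPM. Fibroblast markers (3 of 5 over 3 counts, DCN and LUM at 0 counts) summed to 4.14 to 22.4 CPM. CD3E, PDGFRB and FAP had at most 4 counts in any library. In BRCA1-null cells CD68 was called higher and CD14 lower, in both conditions. The 4 endothelial markers summed in BRCA1+ libraries to 9.48 to 16.2 CPM (DMSO) and 27.3 to 38.3 CPM (entinostat), and in BRCA1-null libraries to 36.6 to 54.3 CPM (DMSO) and 75.1 to 92.9 CPM (entinostat). Among them CDH5 had 166 and 313 counts in BRCA1+ control and 2937 and 3513 counts in BRCA1-null entinostat libraries. CDH5, KDR and VWF were called higher in the BRCA1-null line in both conditions. PECAM1 lay the other way without a call, at 5.42 CPM in BRCA1+ and 2.87 CPM in BRCA1-null control libraries (edgeR adjusted p 0.0832) and at 6.67 and 3.61 CPM with entinostat (0.0832), and its libraries did not overlap. CLDN5, the claudin that marks endothelium, had 3 to 12 counts in any library. The part of these markers in the claudin results was not tested.

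CLDN1, a barrier-forming claudin of most epithelia, was the most abundant member in every group when levels were compared per length. In BRCA1+ cells it reached 364 ± 5.03 CPM per kb in DMSO and 492 ± 9.66 with entinostat (mean ± SD, n = 2 here and for the other levels), and in BRCA1-null cells 248 ± 16.6 and 333 ± 16.5. CLDN16, which is best known from magnesium reabsorption in the kidney, was second everywhere, at 200 ± 6.69 CPM per kb in BRCA1+ control and 139 ± 1.84 in BRCA1-null control libraries. The epithelial claudin CLDN7 came next by mean in every group, at 105 ± 6.28 and 101 ± 2.63 CPM per kb in the same groups. In BRCA1-null entinostat libraries it overlapped CLDN4, so their order was not resolved there. Below this top trio the order depended on the group.

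In BRCA1+ control libraries CLDN4 (60.3 ± 4.81 CPM per kb) and CLDN3 (56.2 ± 5.20) followed and overlapped, so their order was not resolved. CLDN6 (25.3 ± 1.96 CPM per kb), CLDN12 (9.56 ± 0.0302), CLDN11 (1.45 ± 0.238), CLDN15 (0.758 ± 0.111) and CLDN10 (0.112 ± 0.0221) completed the order, each apart from the next. In BRCA1-null control libraries CLDN3 (71.5 ± 0.990 CPM per kb) stood above CLDN4 (64.4 ± 6.85) without overlap. CLDN11 (13.6 ± 0.804 CPM per kb) and CLDN12 (11.4 ± 0.162) there stood above CLDN6 (2.51 ± 0.873). CLDN11 and CLDN6 thus exchanged places between the lines, ranks 8 and 6 in BRCA1+ and ranks 6 and 8 in BRCA1-null cells. With entinostat the ranks within BRCA1+ cells were those of its control, and in BRCA1-null cells CLDN7, CLDN4 and CLDN3 (94.7 ± 0.0740, 88.3 ± 9.24 and 83.4 ± 5.12 CPM per kb) overlapped from one to the next.

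The summed level of all numbered claudins was 828 ± 28.8 CPM per kb for BRCA1+ in DMSO, 1017 ± 4.67 for BRCA1+ with entinostat, and 658 ± 29.1 and 784 ± 33.2 in BRCA1-null cells. CLDN1 made up 44%, 48.3%, 37.7% and 42.5% of the sum in those groups. CLDN16 made up 24.1%, 21.8%, 21.1% and 17.8%. Together these neighbours on chromosome 3 therefore carried most of the claudin signal in every group.

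**Figure D1:**
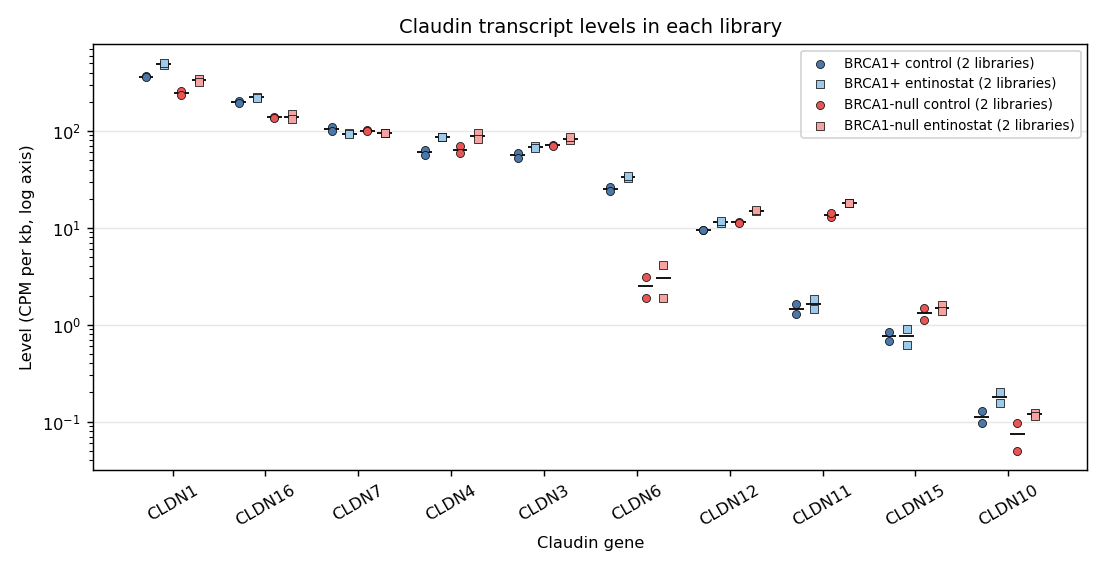
Level of each claudin gene in each library, in CPM per kb of gene model on a log axis, with a point per library, a short line at the mean of each group of 2, circles for control and squares for entinostat. CLDN1 is highest in every group, and the lines are farthest apart at CLDN6 (25.3 CPM per kb in BRCA1+ and 2.51 in BRCA1-null control) and at CLDN11 (1.45 and 13.6).

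BRCA1-null and BRCA1+ cells were compared first in DMSO. The threshold for calling a gene was an adjusted p under 0.05 in the quasi-likelihood test of edgeR, corrected by the Benjamini-Hochberg method over all 17714 genes tested. All 10 members passed the filter on low counts. Of them, 7 were called: CLDN3, CLDN11, CLDN12 and CLDN15 were higher in the BRCA1-null line, and CLDN1, CLDN6 and CLDN16 were lower. Over all tested genes 42.2% were called, 21.1% higher and 21.0% lower. The libraries of the lines did not overlap for 7 of the 10 members, against 70.9% of all tested genes. The median log2 fold change of the members was 0.019, against 0.012 over all tested genes. RNA was measured in bulk, so a change in every cell and a change in the share of cells that express a gene cannot be told apart.

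CLDN11, the claudin of myelin and of Sertoli cell junctions (chr3:170136653-170152479), rose most in BRCA1-null cells. BRCA1+ libraries had 3.68 and 4.64 CPM in DMSO and 4.19 and 5.22 CPM with entinostat, whereas BRCA1-null libraries had 37.3 and 40.5 CPM in DMSO and 51.7 and 51.0 CPM with entinostat. Every BRCA1-null library lay far above every BRCA1+ library. The difference was 3.22 ± 0.123 on the log2 scale (± SE here and for the other differences) in DMSO, or 9.31-fold, with an adjusted p of 4.25e-07 in edgeR.

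CLDN6 (chr16:3064713-3068188) moved the other way. BRCA1+ libraries held 36.5 and 32.7 CPM in DMSO and 45.1 and 47.5 CPM with entinostat, and BRCA1-null libraries held 4.29 and 2.59 CPM in DMSO and 5.69 and 2.56 CPM with entinostat. All 4 BRCA1-null libraries were below all BRCA1+ libraries, and they rested on 107 to 267 counts. In DMSO it fell by 3.35 ± 0.256 on the log2 scale, or 10.2-fold, with an adjusted p of 1.64e-05 in edgeR.

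CLDN1 (chr3:190023490-190040235) and CLDN16 (chr3:190105661-190129932) were both lower in BRCA1-null cells, by about the same factor. CLDN1 had 1269 and 1244 CPM in BRCA1+ control and 897 and 816 CPM in BRCA1-null control libraries, a log2 fold change of -0.55 ± 0.0582 (edgeR adjusted p 9.15e-05). CLDN16 had 670 and 639 CPM in BRCA1+ control and 458 and 449 CPM in BRCA1-null control libraries, a log2 fold change of -0.53 ± 0.0619 (edgeR adjusted p 0.00017). Neither pair of groups overlapped. The genes lie 65.425 kb apart and are transcribed away from each other. Their ratio per length, CLDN1 over CLDN16, was 1.80 and 1.85 in BRCA1+ control and 1.86 and 1.72 in BRCA1-null control libraries, so the ratio overlapped between the lines while both levels moved.

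The remaining called members differed by less. CLDN3 (chr7:73183327-73184600), a gene with 1 exon, had 76.3 and 66.9 CPM in BRCA1+ control and 91.9 and 90.1 CPM in BRCA1-null control libraries (log2 0.35 ± 0.0765, edgeR adjusted p 0.00576). CLDN12 (chr7:90032648-90045268), an atypical claudin without the motif that binds ZO scaffolds, had 34.9 and 35.1 CPM against 42.3 and 41.5 CPM (log2 0.26 ± 0.0638, edgeR adjusted p 0.0103). CLDN15 (chr7:100875373-100882101), a cation channel of the gut, had 1.88 and 1.53 CPM against 3.36 and 2.52 CPM (log2 0.78 ± 0.243, edgeR adjusted p 0.028). All of these lie on chromosome 7, where the median log2 fold change of 893 tested genes was 0.13, with 271 called higher and 116 lower. The call of CLDN15 was lost without BRCA1+ control replicate 1 (edgeR adjusted p 0.0529), BRCA1-null control replicate 1 (0.118) or BRCA1+ control replicate 2 (0.167).

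CLDN4, CLDN7 and CLDN10 were not called between the lines. CLDN4 (chr7:73245193-73247023), a barrier-forming epithelial claudin with 1 exon, had 117 and 104 CPM in BRCA1+ control and 127 and 109 CPM in BRCA1-null control libraries, which overlapped. The 95% interval of its difference ran from -0.12 to 0.31 on the log2 scale. CLDN7 (chr17:7163222-7166512) had 223 and 205 CPM against 210 and 203 CPM and an interval from -0.18 to 0.07, the narrowest of these 3 genes. CLDN10 (chr13:96085853-96232010), whose isoforms form cation or anion channels, had 15 and 13 counts against 13 and 8 counts, and its interval from -1.69 to 0.42 was too wide to show a difference of the size seen for CLDN1.

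The same 7 members were called between the lines in entinostat, each in the direction it had in DMSO, against 39.4% of all tested genes (20.5% higher, 18.9% lower). The libraries of the lines did not overlap for 9 members, against 69.5% of all tested genes. This comparison uses other libraries of the same lines. CLDN11 was 10.8-fold higher (log2 3.43 ± 0.121, edgeR adjusted p 3.61e-07) and CLDN6 was 11-fold lower (log2 -3.47 ± 0.249, edgeR adjusted p 1.25e-05) in BRCA1-null cells. Without BRCA1-null entinostat replicate 1 the difference of CLDN6 was -4.18. CLDN1 was at -0.56 ± 0.0582 and CLDN16 at -0.66 ± 0.0620 on the log2 scale. CLDN3 was at 0.28 ± 0.0762, CLDN12 at 0.39 ± 0.0631 and CLDN15 at 1.01 ± 0.248. The call of CLDN3 was lost without BRCA1+ entinostat replicate 1, BRCA1+ entinostat replicate 2 or BRCA1-null entinostat replicate 2 (edgeR adjusted p 0.0571, 0.118 and 0.106). That of CLDN15 was lost without BRCA1-null entinostat replicate 1 or BRCA1+ entinostat replicate 2 (edgeR adjusted p 0.057 and 0.129).

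**Figure D2:**
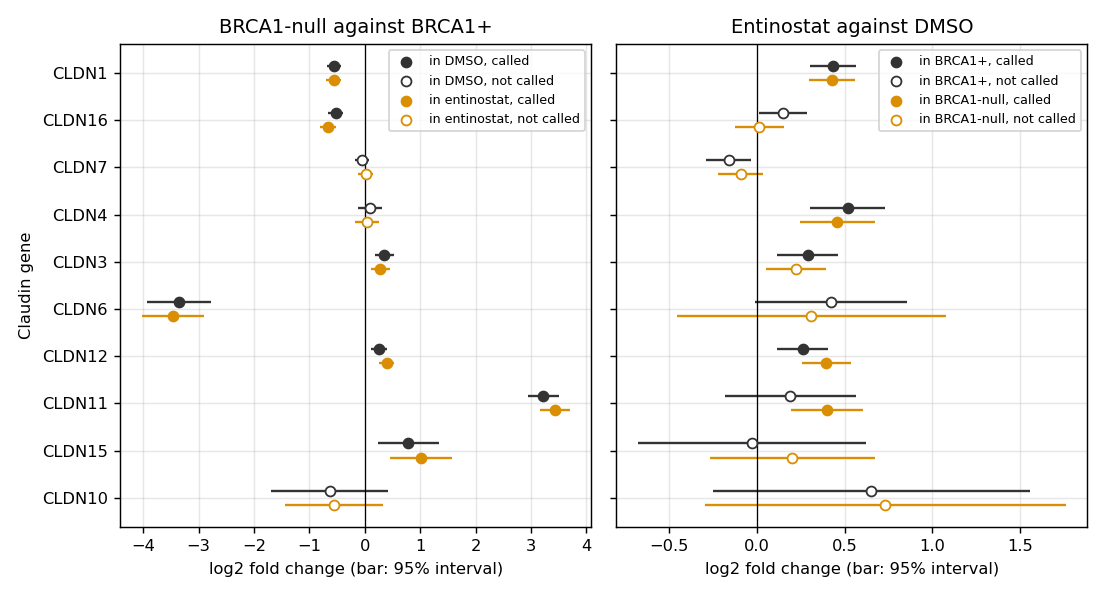
Log2 fold change of each claudin gene with its 95% interval (bar), between the lines at left (black in DMSO, orange in entinostat) and between entinostat and DMSO at right (black in BRCA1+, orange in BRCA1-null), with filled points for called genes. CLDN11 (3.22 in DMSO) and CLDN6 (-3.35) stand apart at left, whereas the called responses to entinostat at right lie between 0.26 and 0.52.

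Entinostat was compared with DMSO within each line. In BRCA1+ cells 4 of the 10 members were called, all higher (CLDN1, CLDN3, CLDN4 and CLDN12), against 14.1% of all tested genes called, 8.13% higher and 6.0% lower. The BRCA1-null line also had 4 called members, again all higher (CLDN1, CLDN4, CLDN11 and CLDN12), against 10.8% called, 7.57% higher and 3.19% lower. CLDN1, CLDN4 and CLDN12 were called in both lines. The median log2 fold change of the members was 0.28 in BRCA1+ and 0.35 in BRCA1-null cells, against 0.00041 and 0.019 over all tested genes. All of these responses were under 2-fold in size, and no member was called lower. Leaving out 1 library lowered the count in BRCA1+ cells to 2 (without BRCA1+ entinostat replicate 1) or 1 (without BRCA1+ control replicate 2 or BRCA1+ entinostat replicate 2), and that in BRCA1-null cells to 2 (without BRCA1-null entinostat replicate 1) or 1 (without BRCA1-null control replicate 2). Libraries did not overlap between treatments for 8 members in BRCA1+ and 7 in BRCA1-null cells, against 57.0% and 54.7% of all tested genes. With the replicate number as a block, more than 4 members were called in each line, against 24.4% and 20.5% of all tested genes.

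CLDN1 rose from 1269 and 1244 CPM to 1674 and 1721 CPM in BRCA1+ cells, an increase of 35.1% (log2 0.43 ± 0.0581, edgeR adjusted p 0.00253). In BRCA1-null cells it rose from 897 and 816 CPM to 1191 and 1110 CPM, an increase of 34.4% (log2 0.43 ± 0.0582, edgeR adjusted p 0.00387). The groups did not overlap in either line, and CLDN1 was the one member whose calls with entinostat held without any single library. Treated BRCA1-null libraries still lay below untreated BRCA1+ libraries.

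CLDN4 rose from 117 and 104 CPM to 157 and 159 CPM in BRCA1+ cells (log2 0.52 ± 0.0957, edgeR adjusted p 0.00918), the largest response among called members. In BRCA1-null cells it rose from 127 and 109 CPM to 174 and 150 CPM (log2 0.46 ± 0.0948, edgeR adjusted p 0.0188). CLDN4 was thus the gene that differed little between the lines and moved with entinostat in both. Its call in BRCA1+ cells was lost without BRCA1+ control replicate 2 (edgeR adjusted p 0.0685) or BRCA1+ entinostat replicate 2 (0.0663). In BRCA1-null cells it was lost without BRCA1-null entinostat replicate 1 (0.113) or BRCA1-null control replicate 2 (0.112), and in a fit of the BRCA1-null libraries alone (0.069).

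CLDN12 moved from 34.9 and 35.1 CPM to 40.9 and 42.9 CPM in BRCA1+ cells (log2 0.26 ± 0.0648, edgeR adjusted p 0.0292). In BRCA1-null cells it moved from 42.3 and 41.5 CPM to 54.8 and 55.4 CPM (log2 0.40 ± 0.0621, edgeR adjusted p 0.00678). The replicates of this gene were close to each other in every group. The call in BRCA1+ cells nevertheless was lost when any of the 4 BRCA1+ libraries was left out (edgeR adjusted p 0.0811 to 0.192), and that in BRCA1-null cells without BRCA1-null control replicate 2 (0.052).

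CLDN3, which lies 60.592 kb from CLDN4, rose in BRCA1+ cells from 76.3 and 66.9 CPM to 89.4 and 85.7 CPM (log2 0.29 ± 0.0773, edgeR adjusted p 0.037). This call was lost without BRCA1+ entinostat replicate 1 (edgeR adjusted p 0.171), BRCA1+ control replicate 2 (0.201), BRCA1+ entinostat replicate 2 (0.124) or BRCA1-null control replicate 2 (0.0515). In BRCA1-null cells CLDN3 went from 91.9 and 90.1 CPM to 102 and 111 CPM and was not called (log2 0.22 ± 0.0754, edgeR adjusted p 0.0942). The ratio of CLDN4 to CLDN3 per length was 1.06 and 1.08 in BRCA1+ control and 1.22 and 1.29 in BRCA1+ entinostat libraries. In BRCA1-null cells it was 0.959 and 0.841 in control and 1.19 and 0.940 with entinostat, which did not resolve a shift from control there since 0.940 lay below 0.959.

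CLDN11 rose with entinostat in BRCA1-null cells, from 37.3 and 40.5 CPM to 51.7 and 51.0 CPM (log2 0.40 ± 0.0914, edgeR adjusted p 0.0271). The call was lost when any of the 4 BRCA1-null libraries was left out (edgeR adjusted p 0.078 to 0.138). In BRCA1+ cells, where CLDN11 was low, its libraries overlapped between treatments (log2 0.19 ± 0.165, edgeR adjusted p 0.499). The 5 other members were called in neither line in the fit without a replicate block. CLDN16 had 739 and 712 CPM with entinostat in BRCA1+ cells (log2 0.15 ± 0.0617, edgeR adjusted p 0.145) and 485 and 432 CPM in BRCA1-null cells (log2 0.01 ± 0.0619, edgeR adjusted p 0.909). The ratio of CLDN1 to CLDN16 per length, which overlapped between the lines in DMSO, stood at 2.15 and 2.29 in treated BRCA1+ and 2.33 and 2.44 in treated BRCA1-null libraries, above all 4 control libraries.

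CLDN7 was the member whose fitted change was below 0 in both lines, at 193 and 190 CPM in treated BRCA1+ libraries (log2 -0.16 ± 0.0570, edgeR adjusted p 0.0968) and 194 and 194 CPM in treated BRCA1-null libraries (log2 -0.09 ± 0.0568, edgeR adjusted p 0.343). CLDN6 had a 95% interval of -0.01 to 0.86 on the log2 scale in BRCA1+ and of -0.45 to 1.08 in BRCA1-null cells. CLDN15 had intervals of -0.68 to 0.62 and -0.27 to 0.67, and CLDN10, at 19 and 21 counts in treated BRCA1+ and 17 and 14 in treated BRCA1-null libraries, of -0.25 to 1.56 and -0.30 to 1.76. A rise of the size seen for CLDN1 lay within each of these intervals, so it was not detectable here at this depth and with 2 libraries a group.

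Whether a claudin responded differently to entinostat in the lines was tested as an interaction, the response of BRCA1-null minus that of BRCA1+ cells. None of the 10 members was called by edgeR, 0 had an unadjusted p under 0.05, and none was called with the DESeq2 Wald test. Over all tested genes 0.00% were called, with 827 at an unadjusted p under 0.05. The smallest unadjusted p among members was that of CLDN16 (log2 -0.13 ± 0.0874, edgeR adjusted p 0.967). For CLDN1 the interval of the difference ran from -0.19 to 0.18, and for CLDN11 from -0.22 to 0.63. CLDN3 and CLDN11, each called with entinostat in one line, were thus not shown to respond differently between the lines.

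The other numbered claudins were scarce. Of these 13 genes, 8 had enough counts to be tested, and CLDN2, CLDN8, CLDN17, CLDN24 and CLDN25 had 0 to 2 counts in any library. CLDN5 (3 to 12 counts) and CLDN18 (4 to 12 counts) were close to the floor. Between the lines in DMSO 3 of the 8 were called (37.5%, against 42.2% of all tested genes): CLDN14, a claudin of the inner ear and kidney (1 and 1 counts in BRCA1+, 11 and 12 in BRCA1-null cells), CLDN19, the kidney partner of CLDN16 (7 and 12 against 18 and 34 counts), and CLDN22 (110 and 158 against 57 and 84 counts). The calls of CLDN14 and CLDN19 rest on few counts, and both were lost with the DESeq2 Wald test (adjusted p 0.0796 and 0.283). CLDN22 lies within WWC2 and CLDN20 (29 to 100 counts) within TFB1M, so some of their reads may belong to the longer gene.

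CLDN9 lies 206 bases from CLDN6, end to end. It had 135 and 219 counts in BRCA1+ control and 225 and 333 in BRCA1-null control libraries and was not called between the lines (log2 0.44 ± 0.225, edgeR adjusted p 0.148). The ratio of CLDN6 to CLDN9 per length was 16.2 and 10.3 in BRCA1+ control but 1.3 and 0.634 in BRCA1-null control libraries. The adjacent pair therefore did not move as one between the lines. With entinostat CLDN9 rose in BRCA1+ cells (193 and 398 counts, log2 0.87 ± 0.222, edgeR adjusted p 0.033), a call lost without BRCA1+ control replicate 1 or 2 or without BRCA1+ entinostat replicate 2 (edgeR adjusted p 0.151, 0.0525 and 0.276). It was the one called of the other claudins with entinostat in BRCA1+ cells. In BRCA1-null cells none was called by edgeR, with 2 at an unadjusted p under 0.05, and 0 by the DESeq2 Wald test. CLDN23 (57 to 96 counts) was not called in any comparison.

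The genes on either side were examined because differences between cell lines can extend along a chromosome. Over the 20 nearest tested genes, 10 on each side, the median log2 difference between the lines in DMSO was -0.06 around CLDN6, with values from -0.80 to 0.67. None of these neighbours approached the -3.35 of CLDN6. Around CLDN11 the median was 0.14 (0.29 without BRCA1+ control replicate 1). Of its 20 neighbours 9 were called higher, MIR6828 among them, and 1 was called lower, against 21.1% and 21.0% of all tested genes. Among the neighbours of CLDN11, chosen here after their values were seen, MIR6828 (3.70) lies inside CLDN11, and LRRIQ4 (3.08) and LRRC34 (2.49) lie upstream of it. MIR6828 is on the strand of CLDN11, with 2 to 65 counts in a library, so its reads may be those of CLDN11. MIR6828 was at 4.6 without BRCA1+ control replicate 2, and LRRIQ4 at 3.76 without BRCA1+ control replicate 1. PRKCI, a polarity kinase of the tight junction list that lies between LRRIQ4 and CLDN11, was at -0.07. Around CLDN1 the median was -0.15. Of its 20 neighbours 4 were called lower, CLDN16 among them, against 21.0% of all tested genes.

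**Figure D3:**
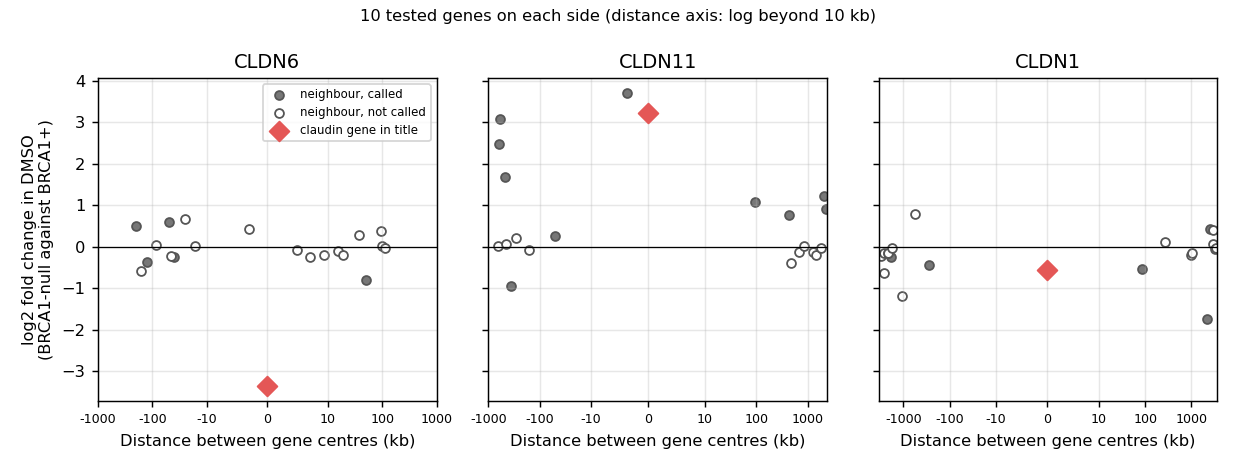
Log2 difference between the lines (DMSO) of CLDN6, CLDN11 and CLDN1 (red diamonds) and of the 10 nearest tested genes on each side (circles, filled where called), against the distance between gene centres in kb on an axis that is logarithmic beyond 10 kb. CLDN6 lies alone at -3.35. Around CLDN11 (3.22) several neighbours were called higher, among them MIR6828, which lies inside CLDN11, and others were not called.

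Partner genes of the claudins were taken from a list of 45 tight junction genes, all of which were tested. In DMSO 23 differed between the lines, with 5 higher and 18 lower in the BRCA1-null line, against 42.2% of all tested genes called and 21.0% called lower. The list's median log2 fold change was -0.18, against 0.012 over all tested genes. In entinostat 24 were called, 5 higher and 19 lower, against 39.4% of all tested genes (20.5% higher, 18.9% lower). Of the list, 19 genes were called in both conditions. Without BRCA1+ control replicate 2 the count in DMSO was 15, and without BRCA1+ entinostat replicate 1, BRCA1+ entinostat replicate 2 or BRCA1-null entinostat replicate 2 the count in entinostat was 13, 14 or 15. OCLN, which encodes the strand protein occludin, went from 32.7 and 36.2 CPM in BRCA1+ control to 21.8 and 26.8 CPM in BRCA1-null control libraries (log2 -0.50 ± 0.105, edgeR adjusted p 0.0046). ESAM, an adhesion molecule of endothelial junctions, had 265 and 198 counts against 45 and 57 (log2 -2.41 ± 0.278). AMOT and PARD3B, an angiomotin and a polarity scaffold, were at -0.79 ± 0.119 and -0.75 ± 0.10.

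Among list members with higher levels in the BRCA1-null line (DMSO), JAM2, a junctional adhesion molecule, was at 1.00 ± 0.334 and the polarity adaptor PARD6A at 0.53 ± 0.140 on the log2 scale. F11R, the junctional adhesion molecule of epithelia, was at 0.26 ± 0.0827 (edgeR adjusted p 0.0329). The calls of JAM2 and F11R were lost without any of 5 libraries (edgeR adjusted p up to 0.311 and 0.256) and that of PARD6A without BRCA1+ control replicate 2 (0.095). Of the scaffold genes, TJP3 fell by 0.66 ± 0.0739, and TJP1 was not called (0.09 ± 0.0546, edgeR adjusted p 0.208). EPCAM, an epithelial adhesion molecule that stabilises CLDN7, was not called either (0.10 ± 0.0656, edgeR adjusted p 0.258). MARVELD2, which encodes tricellulin of tricellular contacts, fell by 0.40 ± 0.0953.

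With entinostat, 8 of the 45 genes were called in BRCA1+ cells, of which 7 rose and MARVELD2 fell, and 5 in BRCA1-null cells, of which 4 rose and MARVELD3 fell, against 14.1% and 10.8% of all tested genes. TJP3, the ZO-3 scaffold gene, rose most firmly: from 22.1 and 22.4 CPM to 52.8 and 53.9 CPM in BRCA1+ cells (log2 1.26 ± 0.0680, edgeR adjusted p 0.000106) and from 13.8 and 14.4 CPM to 35.0 and 35.2 CPM in BRCA1-null cells (log2 1.31 ± 0.0712, edgeR adjusted p 0.000134). Its groups lay far apart in both lines, and the fitted response was larger than that of any called claudin. RAB13, a small GTPase of junction traffic, was also called higher in both lines, with calls that were lost without any of 3 libraries in BRCA1+ (edgeR adjusted p up to 0.0921) and any of 6 in BRCA1-null cells (up to 0.183). MARVELD2 fell by 0.42 ± 0.0990 in BRCA1+ cells. In BRCA1-null cells MARVELD2 was not called (-0.36 ± 0.102, edgeR adjusted p 0.0543). CGNL1 and ILDR2 were called in the BRCA1+ line alone (1.21 ± 0.285 and 1.06 ± 0.290), and MARVELD3 fell in BRCA1-null cells by 0.66 ± 0.123. Each of these last calls was lost without at least 1 library, and the list's count went down to 2 in both lines (without BRCA1+ entinostat replicate 2 and without BRCA1-null entinostat replicate 1). Interaction calls in the list were 0 by edgeR, with 2 genes at an unadjusted p under 0.05, and 0 by the DESeq2 Wald test, so a difference between the lines was not shown for any of them.

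**Figure D4:**
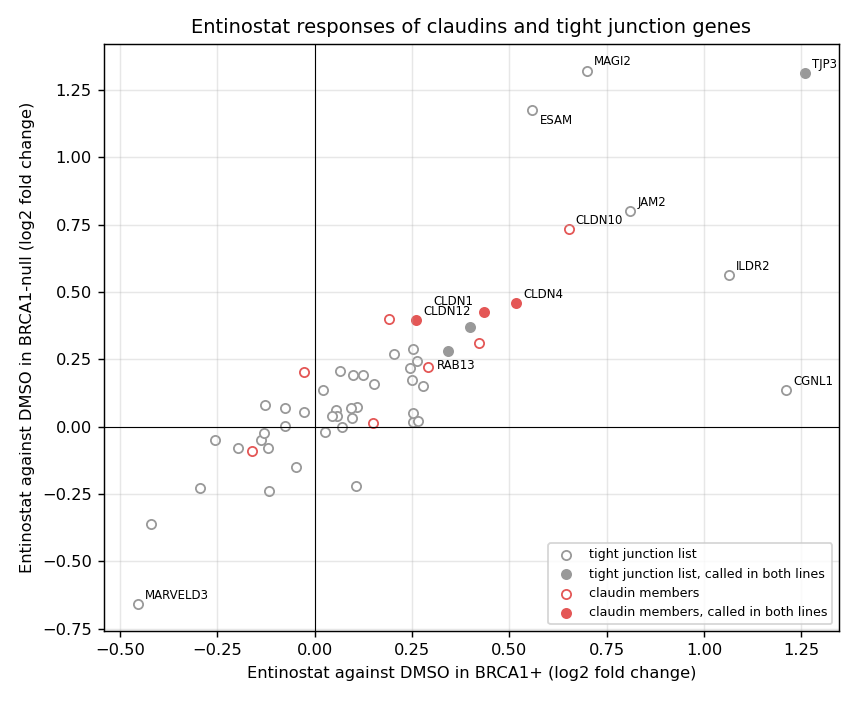
Log2 fold change with entinostat in BRCA1+ cells (horizontal axis) and in BRCA1-null cells (vertical axis) of the claudin members (red) and of the 45 tight junction genes (grey), filled where called in both lines. CLDN1, CLDN4 and CLDN12 are filled and lie between 0.26 and 0.52 on both axes, below TJP3 at 1.26 and 1.31.

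Of 23 regulators of epithelial genes, 21 were tested (CDX1 and HNF4A had 0 counts), and 14 of them differed between the lines in DMSO, against 42.2% of all tested genes. In BRCA1-null cells 6 of these were higher and 8 lower, where 21.1% and 21.0% of all tested genes were. EHF, an epithelial ETS factor, had 80 and 61 counts in BRCA1+ control and 3258 and 2798 in BRCA1-null control libraries (log2 5.22 ± 0.287). The mesenchymal factor TWIST2 had 3 and 6 against 374 and 554 counts, and ZEB1, a repressor of epithelial genes, had 12 and 20 against 109 and 93 counts (log2 2.44 ± 0.402). TFAP2C and TFAP2A, which encode AP-2 factors, were lower, at -1.65 ± 0.206 and -1.09 ± 0.180, and so were GRHL1 and GRHL2, at -0.86 ± 0.0880 and -0.43 ± 0.0713. CDH1, which encodes E-cadherin, fell by 0.49 ± 0.125, a call lost without BRCA1+ control replicate 1 or BRCA1-null control replicate 2 (edgeR adjusted p up to 0.0889). OVOL2 (-0.39 ± 0.144, edgeR adjusted p 0.0565) and ZEB2 (0.18 ± 0.411, edgeR adjusted p 0.762) were not called. The epithelial factors named here thus stood on both sides of the comparison. TWIST2 and ZEB1 were higher in the BRCA1-null line, as was TWIST1 (0.91 ± 0.246, edgeR adjusted p 0.0159). SNAI1 (0.41 ± 0.299, edgeR adjusted p 0.299) and SNAI2 (0.11 ± 0.181, edgeR adjusted p 0.658), like ZEB2, were not called.

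In entinostat 12 of the regulators were called between the lines, 6 in each direction, against 39.4% of all tested genes. Entinostat itself moved 5 in BRCA1+ cells and 4 in the BRCA1-null line, against 14.1% and 10.8% of all tested genes, and ESRP2 was the one that fell in both. CDH1 rose from 56.7 and 52.1 CPM to 84.0 and 85.4 CPM in BRCA1+ cells (log2 0.64 ± 0.122, edgeR adjusted p 0.0102) and from 42.9 and 34.8 CPM to 60.7 and 48.1 CPM in BRCA1-null cells (log2 0.49 ± 0.125, edgeR adjusted p 0.0389). SNAI1, a repressor of CDH1, rose as well (1.14 ± 0.283 and 1.18 ± 0.238), and the epithelial splicing factor ESRP2 fell by 0.56 ± 0.0630 and 0.49 ± 0.0632. GRHL3 was called in the BRCA1+ line alone (1.17 ± 0.334), though it was at 1.47 ± 0.410 in BRCA1-null cells (edgeR adjusted p 0.0522). Of these calls, that of CDH1 was lost without BRCA1+ entinostat replicate 1 or 2 or BRCA1+ control replicate 2 in BRCA1+ cells (edgeR adjusted p up to 0.0729) and without any of 6 libraries in BRCA1-null cells (up to 0.21), that of SNAI1 without any of 4 and any of 2 libraries (up to 0.152 and 0.109), and that of GRHL3 without any of 6 (up to 0.209). None of the 21 was called in the interaction by edgeR, with 0 at an unadjusted p under 0.05.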

How the data were processed

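Poly(A) RNA was sequenced in 8 libraries of UWB1.289 cells. The authors deposited raw read counts per gene, made with TopHat 2 and NGSUtils on hg19, and how strand and reads with several positions were treated is not given in the sources used here. Groups and replicate numbers came from the sample titles. An entry without a name held 0 counts. The claudin members and gene lists were chosen with earlier results of these data known. Genes were filtered with filterByExpr (17714 of 25369 kept), scaled by TMM and fitted with edgeR 4.0.16 in R 4.3.3 (quasi-likelihood, legacy set to FALSE, a mean per group, 4 residual degrees of freedom, two-sided tests), tested on simulated data first. SE is the unshrunk log2 fold change divided by the root of F. CPM used effective library sizes, and levels between genes were divided by gene model length. Intervals and floors cover counting or replicate error as stated, since sequenced fragments are not independent molecules.

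Coordinates are those of the count table, counted from 1. Promoters were read from GRCh37 at transcript starts of GENCODE v44lift37 (MANE Select). CLDN3 and CLDN4 lie inside the spans of multi-copy entries and CLDN7 shares 38 bases with ELP5, and reads shared with them could not be separated. Besides the members and BRCA1, every other claudin with at least 10 counts in a library was named. Of the lists, a fixed panel of 12 genes was named, together with the called genes (mean log2 CPM 0 or more) that ranked in the top 3 by log2 fold change in either direction of each contrast. Some genes this rule names are not reported here. Names outside this rule (CLDN2, CLDN8, CLDN17, CLDN24, CLDN25, SNAI2, TWIST1, the neighbours of CLDN11, CDH5 and the other markers named) were added to account for a count or after their values were seen. Alternatives were DESeq2 1.42.0 size factors and Wald test, upper-quartile factors, no filter or a stricter filter (CPM of at least 1 in 2 libraries), the legacy estimate, a replicate block, fits of only the groups compared, a minimum 2-fold change, an unadjusted p under 0.01 and omission of each library.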

Additional observations from a re-analysis of the deposited data

How the results depend on the processing

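A minimum 2-fold change left 2 and 3 claudin members called between the lines (DMSO, entinostat) and 0 with entinostat in either line, and 1, 1, 3 and 2 tight junction genes in those 4 comparisons, and of the other claudins 0 with entinostat in BRCA1+ cells. Without one library at a time, members called ranged from 6 to 7 and 5 to 7 between the lines (DMSO, entinostat) and from 1 to 4 with entinostat in either line. Tight junction genes called ranged from 15 to 24, 13 to 22, 2 to 9 and 2 to 6, and other claudins from 1 to 3, 1 to 2, 0 to 1 and 0 to 0. A stricter filter on low counts and the DESeq2 Wald test each left 1 other claudin called in both conditions, and fits of only the groups compared left 3 tight junction genes with entinostat in BRCA1-null cells. No label says that a replicate number marks a shared culture, batch or day. With 2 replicates a group, their deviations from the group means nevertheless correlated positively, at 0.116 to 0.447 over 6 pairs of groups. What replicates of the same number share was not tested. With the replicate number as a block, 7, 7, 6 and 5 members, 29, 30, 19 and 17 tight junction genes and 4, 2, 1 and 1 other claudins were called, against 50.6%, 47.4%, 24.4% and 20.5% of all tested genes, where the fit without the block called 42.2%, 39.4%, 14.1% and 10.8%. Counts not divided by length put the CLDN1 share at 52.2% in place of 43.1%. Leave-one-out medians of neighbours ran from -0.075 to 0.066 for CLDN7 and from 0.11 to 0.29 for CLDN11. With upper-quartile factors, the median of all genes was 0.055 between the lines in DMSO (4157 called higher, 3247 lower) and 0.048 with entinostat in BRCA1+ cells (1753 higher, 665 lower).

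Of member differences recomputed, 726 kept direction and call, 28 lost the call, 4 gained it and 27 changed sign, all of the last among differences that were not called. With upper-quartile factors CLDN15 with entinostat in BRCA1+ cells was at 0.0197, and with only the groups compared CLDN16 with entinostat in BRCA1-null cells was at -0.0065. The other sign changes came from leaving out 1 library, where interactions ran from -0.075 to 0.042 (CLDN1), -0.17 to 0.024 (CLDN3), -0.17 to 0.043 (CLDN4), -0.82 to 0.33 (CLDN6), -0.00027 to 0.13 (CLDN7), -0.36 to 0.57 (CLDN10) and -0.058 to 0.46 (CLDN15). Line differences ran from -0.077 to 0.14 (CLDN4, entinostat), -0.12 to 0.0050 (CLDN7, DMSO) and -0.0016 to 0.014 (CLDN7, entinostat), and entinostat responses from -0.40 to 0.75 (CLDN6, BRCA1-null), -0.00017 to 0.38 (CLDN11, BRCA1+), -0.27 to 0.25 (CLDN15, BRCA1+), -0.0065 to 0.39 (CLDN15, BRCA1-null) and -0.072 to 0.096 (CLDN16, BRCA1-null). A fit without 1 library assumes that the lone sample left varies like the other groups. The cause of these changes was not tested. At 8 to 21 counts, CLDN10 was limited by depth.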

Other observations

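For the 3 most abundant claudins, the genes whose pattern over the 4 group means was most alike were sought among the 10526 genes whose mean log2 CPM reached 3, by the root mean square difference of centred log2 levels. The nearest to CLDN1 were ARL3 (0.015), a small GTPase of cilia, ZBED8 (0.023) and TNC (0.031), which encodes the matrix protein tenascin C. The nearest to CLDN16 were KIAA1191 (0.016), TPMT (0.016), a thiopurine methyltransferase, and NCOA1 (0.019), a nuclear receptor coactivator. The nearest to CLDN7 were FKBP15 (0.0040), C7orf25 (0.0064) and GLRX3 (0.0070). None of these genes lies on the chromosome of the claudin it resembles. The likeness rests on 4 points that share libraries, and with so many genes compared such close matches carry no test.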
